A study of Mus musculus with 6 samples.

Results

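The RUNX genes and the factors and coreceptors that define helper T cells were followed in mouse T helper 2 (Th2) cultures with and without Eos, the zinc finger protein encoded by Ikzf4. The group was set by name and comprised Runx1, Runx2 and Runx3, their shared partner Cbfb, the ThPOK gene Zbtb7b, and the coreceptor genes Cd4, Cd8a and Cd8b1. All 8 genes had a row in the deposited table, among 14868 rows in all, and each of the 8 passed the filter on low values. Total RNA had been sequenced from CD4+ T cells of C57BL/6J background, as 3 libraries for WT and 3 for Ikzf4-/-. Naïve cells were stimulated with plate-bound anti-CD3 (5 µg/mL) and anti-CD28 (2 µg/mL) for 72 h, and both genotypes received IL-4 at 10 ng/mL and anti-Ifng at 10 µg/mL. The labels do not describe the Ikzf4 allele, the age or sex of the mice, or whether each library came from its own animal, so p-values measure the spread between these libraries, which may be technical.

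RUNX proteins bind DNA through a conserved Runt domain, and each is stabilised on DNA by CBFβ, the product of Cbfb. In developing T cells, ThPOK drives the CD4 helper fate and Runx3 drives the CD8 cytotoxic fate, and each represses the gene of the other. RUNX complexes also silence Cd4 in CD8 cells, activate Cd8a, and, in peripheral helper cells, Runx3 acts with T-bet to silence Il4 and promote Ifng in the Th1 fate.

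The Runx genes have alternative start sites, and their RefSeq promoter windows (250 bases before to 50 bases after a start, build GRCm38.p6) are shown because the members turned out to share sequence there. Windows were found for 6 of the 8 genes: 2 each for Runx1, Runx3 and Zbtb7b and 1 each for Runx2, Cbfb and Cd8a. The distal (upstream) Runx1 and Runx3 windows and the Runx2 window held a common run of 18 bases, in capitals below, that contains the letters ACCACA, the reverse complement of the RUNX core TGTGGT, in tandem. The 30-base stretches lie at chr16:92826025-92826054 (minus strand), chr17:44814583-44814612 (minus strand) and chr4:135120503-135120532 (plus strand).
Runx1: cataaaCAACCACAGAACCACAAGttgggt
Runx2: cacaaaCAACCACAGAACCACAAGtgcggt
Runx3: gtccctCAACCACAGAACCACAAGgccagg

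The run was picked as the longest one shared by these Runx1, Runx2 and Runx3 windows, so their own matches were fixed in advance. Its share of all windows is therefore a description and no test. On either strand, it was found in 4 of 32851 windows (0.0122%). The fourth was that of Gm16225, whose window on the opposite strand overlaps the distal Runx3 window. In Runx1 and Runx2 the run lies 27 to 44 and 22 to 39 bases after the start, and in Runx3 it spans positions -136 to -119, before it. The core letters TGTGGT or TGCGGT were counted on both strands, with overlapping matches allowed. There were 4 matches in the Runx2 window, 2 in each of the distal Runx1 and Runx3 windows, 1 in the Cd8a window and 1 in the proximal Zbtb7b window. The proximal Runx1 and Runx3 windows, the distal Zbtb7b window and the Cbfb window held 0. At least 1 match was present in 22.4% of all windows and at least 2 in 2.86%. These are matches of letters, and binding was not measured.

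Because Runx3 was the 1 member called between genotypes, the 250 bases before each of its starts are given with core letters in capitals. The distal stretch (chr4:135120395-135120644, plus strand) had a GC content of 65.2% and 2 matches, and the proximal stretch (chr4:135152295-135152544, plus strand) had a GC content of 78.8% and 0. The deposited values are per gene, so transcripts from the 2 starts were not separated.
Runx3 distal: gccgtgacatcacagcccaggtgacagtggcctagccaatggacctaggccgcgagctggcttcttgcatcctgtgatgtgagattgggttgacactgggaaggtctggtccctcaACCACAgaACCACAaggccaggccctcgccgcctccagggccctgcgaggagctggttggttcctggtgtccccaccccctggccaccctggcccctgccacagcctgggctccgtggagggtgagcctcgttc
Runx3 proximal: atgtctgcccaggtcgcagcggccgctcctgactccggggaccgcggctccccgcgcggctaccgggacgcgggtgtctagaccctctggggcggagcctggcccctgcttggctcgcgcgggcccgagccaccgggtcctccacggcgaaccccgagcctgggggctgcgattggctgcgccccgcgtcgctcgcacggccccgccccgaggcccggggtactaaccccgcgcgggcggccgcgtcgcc

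Ikzf4 itself was checked first. Its normalized read count (taken to be reads divided by a size factor per library) was 756, 499.6 and 483 for WT. Replicates 1, 2 and 3 are given in that order here and below. For Ikzf4-/- the values were 25.2, 10.5 and 38.2 (limma log2 fold change -4.64, adjusted p = 0.000389), which matches the labels. If the values are such reads, they imply a depth of 34701390 to 40604346 reads per library, though whole reads were not accepted as recovered. WT replicate 1 stood apart on the first principal component (40.2% of the variance), at -41.3 against -12.5 and -5.26 for the other WT libraries and 11.1 to 30.8 for the Ikzf4-/- libraries. The T cell list had all 10 genes in the table, with summed normalized counts of 126451 to 129752 in WT and 116829 to 123613 in Ikzf4-/- libraries. Of these 10, 1 was called, the adhesion receptor gene Cd2 (log2 fold change -0.41, limma adjusted p = 0.0258). Among those not called, Cd3g and Thy1 were lower and Trac higher in all 3 Ikzf4-/- libraries, without overlap. Over all genes tested, 1.77% were called and 23.1% had no overlap between genotypes. Of markers of other cells, 2 of 6 B cell genes (summed 51.1 to 83.6 in WT and 58.6 to 90.4 in Ikzf4-/-), 1 of 8 myeloid and dendritic genes (at most 13.6), 0 of 4 NK cell genes and 2 of 3 γδ and NKT cell genes (220 to 429 in WT and 149 to 267 in Ikzf4-/-) had a row. The part of these marker levels in the results below was not tested. In bulk RNA, fewer cells of a type and less RNA per cell cannot be told apart.

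Of the 8 genes, 1 passed the test across all genes (limma, Benjamini-Hochberg adjusted p under 0.05): Runx3, which fell in Ikzf4-/- cells. Of 14864 genes tested, 1.77% were called, 1.20% lower and 0.572% higher. For 3 of the 8 genes, Runx2, Runx3 and Cd4, the WT and Ikzf4-/- values were fully separate, against 23.1% of all genes tested. The median log2 fold change of the 8 genes was -0.00, with 4 fitted lower and 4 higher, beside 0.00 for all genes tested. Without WT replicate 1, 2 of the higher ones, Zbtb7b and Cd8b1, were fitted lower. The authors' deposited table called the same single member, beside 6.34% of the genes for which it gives an adjusted p.

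**Figure D1:**
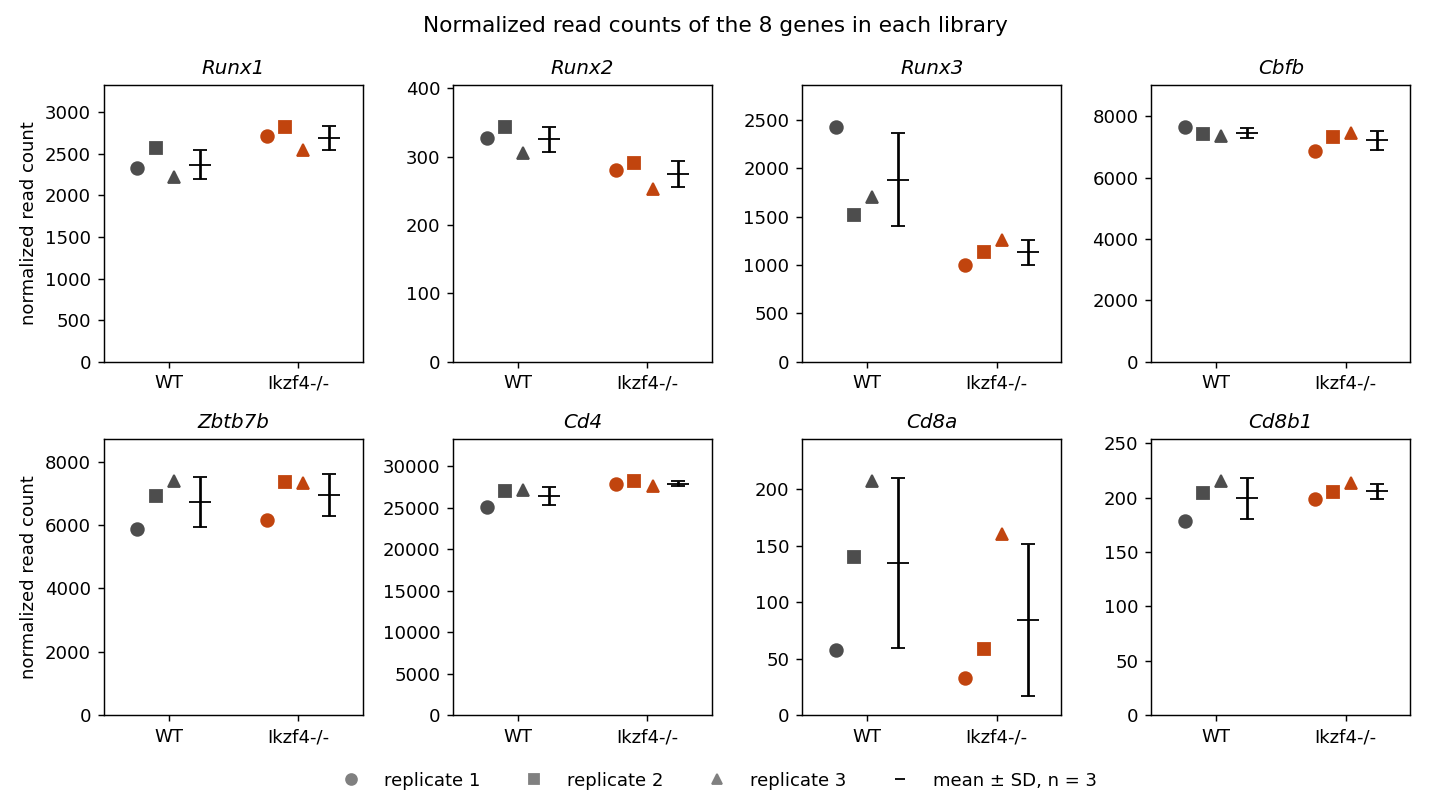
Normalized read count (vertical axes, from 0, a different range for each gene) of the 8 genes in 3 WT (gray) and 3 Ikzf4-/- (orange) libraries, 1 point per library, with the mean and SD beside them. Runx3 is lower in all 3 Ikzf4-/- libraries, and Cd8a spreads widely within each genotype.

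Among the RUNX genes, Runx3, the factor of the cytotoxic and Th1 fates (ENSMUSG00000070691, chromosome 4, 135120652 to 135177990 on the plus strand of GRCm38), had a normalized read count of 2424, 1519 and 1702 in WT cells and of 997, 1137 and 1258 in Ikzf4-/- cells. The highest Ikzf4-/- value lay below the lowest WT value, and WT replicate 1 was the highest of the 6. The mean fell from 1882 ± 479 to 1130 ± 131 (SD, n = 3 each), a change of -39.9%. The log2 fold change was -0.71 (SE 0.15, 95% interval -1.04 to -0.39, limma adjusted p = 0.0436), and the gene ranked at position 192 of 14864 by p. The authors' deposited table gives -0.73 and an adjusted p of 0.0302. The call rested on all 3 Ikzf4-/- libraries: leaving out replicate 1, 2 or 3 gave an adjusted p of 0.123, 0.116 and 0.102. The log2 fold changes in these fits were -0.62, -0.72 and -0.79. Over all genes, the number called went from 263 to 48, 112 and 20 in the same fits, so the loss of calls was not particular to Runx3. The Runx3 call held without any 1 of the WT libraries (adjusted p from 0.0160 to 0.0421), and without WT replicate 1 the log2 fold change was -0.51.

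Runx1, the family member required for the emergence of blood stem cells and for thymocyte development (ENSMUSG00000022952, chromosome 16, 92601466 to 92826149 on the minus strand), was at 2324, 2567 and 2221 in WT and at 2713, 2819 and 2540 in Ikzf4-/- libraries. The genotypes overlapped only at WT replicate 2 and Ikzf4-/- replicate 3. The log2 fold change was 0.18 (95% interval 0.04 to 0.33) and did not pass the test over all genes (limma adjusted p = 0.173).

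Runx2, best known as the factor of bone formation (ENSMUSG00000039153, chromosome 17, 44495987 to 44814797 on the minus strand), was at 327, 343 and 306 in WT and at 280, 291 and 253 in Ikzf4-/- libraries. Each Ikzf4-/- value was below each WT value, but the log2 fold change of -0.24 (95% interval -0.49 to -0.00) was not called (limma adjusted p = 0.276). The antisense gene Runx2os1 overlaps 519 exonic bases of Runx2 and was at most 20.2, and strand use in counting is not given in the sources used here, so reads of the 2 could not be told apart there.

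Cbfb, the partner that all RUNX proteins share (ENSMUSG00000031885, chromosome 8, 105170674 to 105217989 on the plus strand), was nearly level at 7642, 7408 and 7340 in WT and 6861, 7325 and 7459 in Ikzf4-/- libraries. The ranges overlapped, and the 95% interval of the log2 fold change ran from -0.15 to 0.05 (estimate -0.05, limma adjusted p = 0.634).

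**Figure D2:**
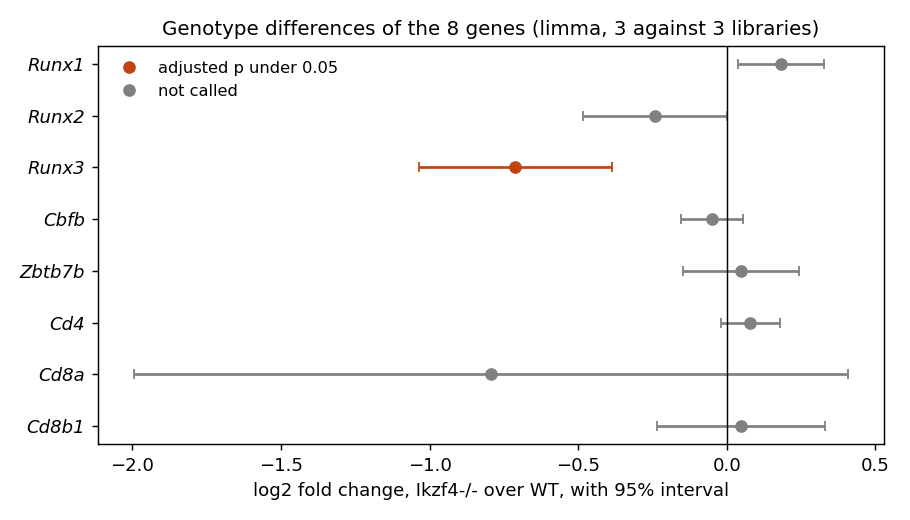
Log2 fold change (Ikzf4-/- over WT, horizontal axis) of each of the 8 genes with its 95% interval from limma. Only the Runx3 point, at -0.71, is colored as called, and the widest interval is that of Cd8a, from -2.00 to 0.41.

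To compare the RUNX genes with each other, each value was divided by the length of the gene's annotated exons. On this scale Runx3 made up 67.8%, 54.6% and 60.8% of the summed Runx level in WT and 43.6%, 45.9% and 51.2% in Ikzf4-/- libraries. Runx1 made up 27.0%, 38.4% and 33.0% in WT and 49.4%, 47.4% and 43.0% in Ikzf4-/- libraries. Neither set of shares overlapped between genotypes. Runx3 was thus the largest component in each WT library, while in Ikzf4-/- replicates 1 and 2 Runx1 was. Shares of a library sum to a whole, so those of Runx1 and Runx3 are not independent results. The summed Runx level and the Runx3 ratios below also contain the same Runx3 values. The share of Runx3 was 61.1% ± 6.59 in WT and 46.9% ± 3.86 in Ikzf4-/- (SD, n = 3 each), a difference of -14.1 percentage points (two-sided exact permutation p = 0.1, the smallest that 3 against 3 libraries allow, and 0.133 after Benjamini-Hochberg adjustment over the 8 shares, ratios and sums tested this way). Without WT replicate 1 the difference was -10.8 points. The share of Runx2 was 6.12% ± 0.909 in WT and 6.48% ± 0.581 in Ikzf4-/- (SD, n = 3 each; exact permutation p = 0.7). Which gene leads depends on the length used. With the longest transcript of each gene as its length, Runx3 made up 51.1% in WT and 36.7% in Ikzf4-/-, and Runx1 43.5% and 57.9%, and in WT replicate 2 Runx1 led (49.7% against 44.3%). With no division by length, Runx1 led in the WT mean too, at 52.1% against 40.8% for Runx3, and made up 65.7% against 27.6% in Ikzf4-/-.

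**Figure D3:**
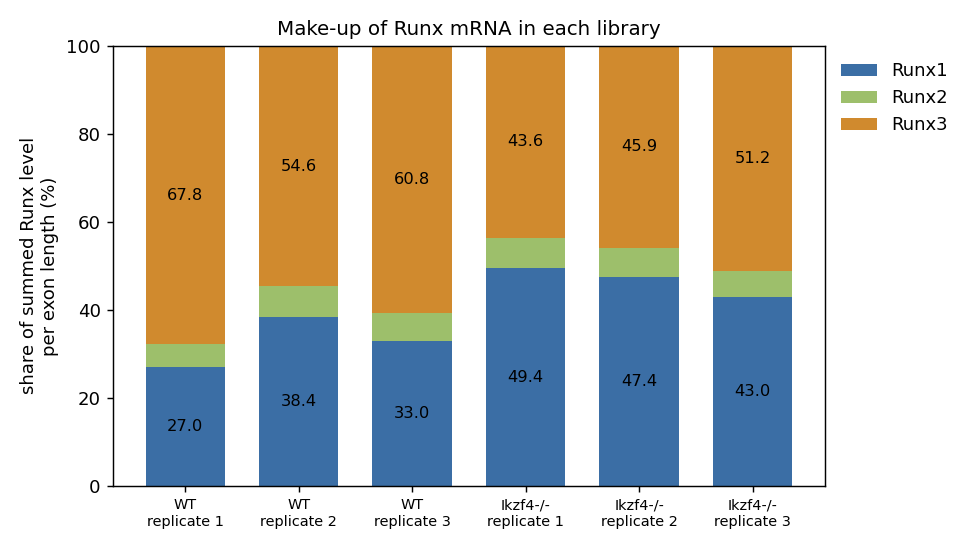
Share of each Runx gene in the summed Runx level per exon length (vertical axis, percent) in each of the 6 libraries (horizontal axis). Runx3 holds 54.6% to 67.8% in the WT bars and 43.6% to 51.2% in the Ikzf4-/- bars.

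The summed Runx level was 715, 556 and 560 normalized reads per kb in WT and 457, 495 and 491 in Ikzf4-/- libraries (exact permutation p = 0.1, the smallest possible). Cbfb stood at 3.07, 3.83 and 3.77 times the summed Runx level per kb in WT and at 4.32, 4.26 and 4.36 times in Ikzf4-/- libraries. On this scale the 2 genotypes did not overlap in either quantity (exact permutation p = 0.1 for the ratio), and WT replicate 1 was the extreme library of both. Both separations depend on the length used. With no division by length, the summed Runx level and the Cbfb ratio overlap between genotypes.

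Zbtb7b, which encodes the helper lineage factor ThPOK (ENSMUSG00000028042, chromosome 3, 89377644 to 89394776 on the minus strand), was at 5866, 6929 and 7394 in WT and at 6171, 7348 and 7326 in Ikzf4-/- libraries. The ranges overlapped almost fully, and the log2 fold change of 0.05 had a 95% interval of -0.15 to 0.24 (limma adjusted p = 0.828). The antisense gene Gm15417, at 63.9 to 142, overlaps 116 of its exonic bases. The number of Zbtb7b reads per Runx3 read was 2.42, 4.56 and 4.34 in WT and 6.19, 6.46 and 5.82 in Ikzf4-/- libraries. All Ikzf4-/- ratios lay above all WT ratios, with a mean log2 ratio of Runx3 to Zbtb7b of -1.86 ± 0.51 in WT and -2.62 ± 0.08 in Ikzf4-/- (SD, n = 3 each; exact permutation p = 0.1, the smallest possible). The difference of -0.76 was -0.47 without WT replicate 1. For Runx3 to Runx1 the mean log2 ratio was -0.36 ± 0.41 in WT and -1.26 ± 0.22 in Ikzf4-/- (SD, n = 3 each; exact permutation p = 0.1).

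Cd4, the coreceptor for MHC class II (ENSMUSG00000023274, chromosome 6, 124864692 to 124888221 on the minus strand), had the highest level of the 8 genes per exon length. Its normalized read count was 25135, 27002 and 27170 in WT and 27917, 28266 and 27577 in Ikzf4-/- libraries. Each Ikzf4-/- value was above each WT value, yet the difference was small, with a log2 fold change of 0.08 (95% interval -0.02 to 0.18, limma adjusted p = 0.383).

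The CD8 coreceptor genes lie side by side on chromosome 6, Cd8b1 (ENSMUSG00000053044, 71322788 to 71337494) 35933 bases before Cd8a (ENSMUSG00000053977, 71373427 to 71379173), both on the plus strand, and they encode the β and α chains of the receptor for MHC class I. Cd8b1 was at 179, 204 and 215 in WT and 199, 205 and 213 in Ikzf4-/- libraries, with overlapping ranges (log2 fold change 0.05, 95% interval -0.24 to 0.33, limma adjusted p = 0.889). Cd8a was at 57.5, 140 and 208 in WT and 33.3, 58.6 and 161 in Ikzf4-/- libraries. Its highest value was 6.24 times its lowest, against 1.20 times for its neighbour Cd8b1. The log2 fold change of Cd8a was -0.79 with a 95% interval from -2.00 to 0.41 (limma adjusted p = 0.489), so the interval holds changes of either sign. It moved to -1.31 without WT replicate 1, -0.39 without WT replicate 3, -0.29 without Ikzf4-/- replicate 1 and -1.41 without Ikzf4-/- replicate 3, and was called in none of these fits. With the replicate number as a block, the limma adjusted p of Cd8a was 0.0641. The labels do not say that libraries of the same number are pairs. The ratio of Cd8a to Cd8b1 per exon length was 0.131, 0.280 and 0.393 in WT and 0.0683, 0.117 and 0.308 in Ikzf4-/- libraries (exact permutation p = 0.4).

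Per exon length, Cd4 stood at 46.4 to 51.7 times the level of Cd8b1 and at 118 to 756 times that of Cd8a, in libraries labelled as CD4+ T cells. In WT the mean levels were 6556 ± 280 normalized reads per kb for Cd4, 2145 ± 45.6 for Cbfb, 1204 ± 140 for Zbtb7b, 376 ± 95.7 for Runx3, 197 ± 14.8 for Runx1, 134 ± 12.6 for Cd8b1, 37.2 ± 20.7 for Cd8a and 36.8 ± 2.13 for Runx2 (SD, n = 3 each). Neighbours in this order did not overlap, except Cd8a and Runx2. The order of Runx3 and Runx1 depends on the length used, as described above. In Ikzf4-/- libraries the order was the same except that Cd8a (23.2 ± 18.6) lay below Runx2 (31.1 ± 2.21), and there Runx3 (226 ± 26.1) overlapped Runx1 (224 ± 11.7; SD, n = 3 each) as well. Among 14831 genes with a known length, Cd4 stood at the 98.3rd percentile in WT, Zbtb7b at 87.8, Runx3 at 67.2 and Cd8a at 27.4.

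Genes whose levels over the 6 libraries ran most like those of Runx3 were sought among 11599 genes with a mean of at least 50, by the root mean square difference of log2 values after centring each gene. The 3 nearest were Ptprf (0.111), which encodes a receptor tyrosine phosphatase, B3gnt3 (0.119), which encodes a glycosyltransferase, and March9 (0.120), which encodes a membrane E3 ubiquitin ligase. March9 was called (log2 fold change -0.74, limma adjusted p = 0.0327), and Ptprf (-0.67, 0.182) and B3gnt3 (-0.72, 0.117) were not. All 3 were highest in WT replicate 1, as Runx3 was.

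Of the 65 tested genes on 4 lists around these factors, 5 were called (7.69%), 4 lower and 1 higher in Ikzf4-/- cells, beside 1.77% of all genes tested (1.20% lower and 0.572% higher). The lists were chosen with earlier results of these data known, so the larger share is a description and no sign that these genes stand apart. The lists were RUNX cofactors, the circuit that sets CD4 or CD8 lineage, cytotoxic and CD8 effector genes, and genes of helper identity.

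Of 13 tested RUNX cofactors, 1 was called lower, 0 were called higher (all genes 1.77% called), and the median log2 fold change was 0.03, beside 0.00 over all genes. The called gene was Aes (now named Tle5), a short relative of the Groucho/TLE corepressors that RUNX proteins recruit. Its normalized read count was 7112, 5657 and 5450 in WT and 4527, 4477 and 4216 in Ikzf4-/- libraries (log2 fold change -0.45, limma adjusted p = 0.0329), without overlap. Its call was lost without any 1 of the Ikzf4-/- libraries (adjusted p from 0.0823 to 0.126) and without WT replicate 2 (0.0615). The most abundant cofactor gene, Ets1, which encodes an ETS factor that binds DNA together with RUNX proteins, was not called (log2 fold change -0.12, limma adjusted p = 0.395). The median hides shifts in both directions. Without overlap between genotypes were 8 of the 13, 3 lower and 5 higher in Ikzf4-/- libraries, beside 23.1% of all genes tested. Among them, not called, were Tle1 (log2 fold change -0.93), Tle3 (0.19) and Tle4 (0.49). The authors' deposited table called 5 of the 13, 3 lower and 2 higher, beside 6.34% of the genes for which it gives an adjusted p.

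Of 19 tested genes of the lineage circuit, 1 was called lower and 0 higher (all genes 1.77% called), with a median of 0.06. It was Socs1, a feedback inhibitor of cytokine signalling that ThPOK is known to induce, at 6006, 6216 and 6407 in WT and 4328, 4680 and 5442 in Ikzf4-/- libraries (log2 fold change -0.37, limma adjusted p = 0.0375). Its call was lost without WT replicate 2 (0.0898), WT replicate 3 (0.0522), Ikzf4-/- replicate 1 (0.0939) or Ikzf4-/- replicate 2 (0.123). The most abundant gene of this list, Chd4, the nucleosome remodelling ATPase of the NuRD complex, was not called (log2 fold change 0.06, limma adjusted p = 0.528).

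Of 11 tested helper identity genes, 1 was called lower and 1 higher (all genes 1.20% and 0.572%), with a median of -0.07. Il4, the Th2 cytokine gene that carries a RUNX-bound silencer, was at 491, 427 and 430 in WT and at 257, 271 and 212 in Ikzf4-/- libraries (log2 fold change -0.87, limma adjusted p = 0.0144), with no overlap. Cd5, a receptor that dampens T cell receptor signalling, was at 7926, 8293 and 8926 in WT and 10617, 9750 and 11189 in Ikzf4-/- libraries (log2 fold change 0.33, limma adjusted p = 0.0306). Without Ikzf4-/- replicate 3, neither was called (adjusted p = 0.0571 for Il4 and 0.116 for Cd5), and Cd5 was also not called without WT replicate 2 (0.0794) or Ikzf4-/- replicate 1 (0.0894). The most abundant gene of the list, Tnfrsf4, which encodes the costimulatory receptor OX40, was not called (log2 fold change -0.15, limma adjusted p = 0.296).

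**Figure D4:**
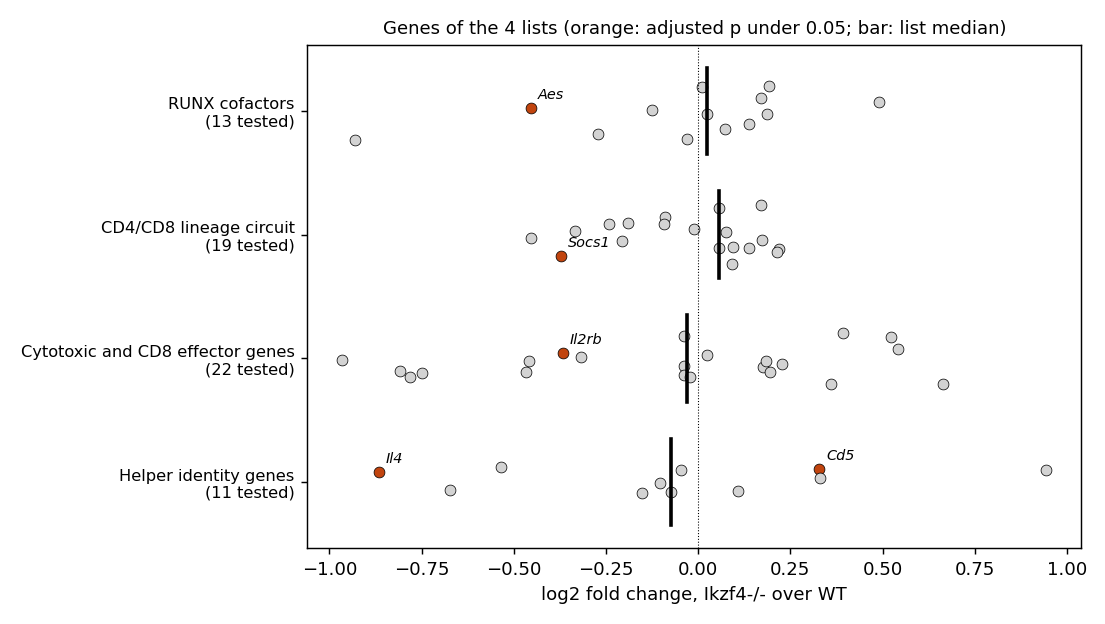
Log2 fold change (Ikzf4-/- over WT, horizontal axis) of each tested gene on the 4 lists, 1 point per gene, with called genes in orange and named and the list median as a bar. The medians lie between -0.07 and 0.06, and 5 of 65 points are called.

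The cytotoxic and CD8 effector genes, of which 22 were tested, held 1 gene called lower and 0 called higher (all genes 1.77% called), and their median log2 fold change was -0.03. The called gene was Il2rb, the shared β chain of the IL-2 and IL-15 receptors, at 19367, 18169 and 17924 in WT and 14368, 13649 and 14985 in Ikzf4-/- libraries (log2 fold change -0.37, limma adjusted p = 0.0129). Its call held whichever of the 6 libraries was left out. Gzmb, the granzyme B gene and the most abundant of the list, was at 13072, 26855 and 26051 in WT and 11400, 8928 and 18963 in Ikzf4-/- libraries (log2 fold change -0.75, limma adjusted p = 0.200). WT replicate 1, the library that stood apart, was the lowest WT library for 19 of the 22 genes and the lowest of all 6 for 14, while it was the highest for Runx3. Without it, 5 of the 22 were called, all lower in Ikzf4-/- cells: Il2rb, and Prf1, Gzma, Gzmb and Gzmc, which encode the pore-forming and granzyme proteins of killer cells and had log2 fold changes of -1.21, -1.45, -1.09 and -1.26 (limma adjusted p = 0.0170, 0.0208, 0.0182 and 0.0456). The list median was then -0.33, with 14 of 22 genes fitted lower, beside 0.00 and 1.82% called over all genes. Leaving out any other library gave 1 called gene, Il2rb, except that without WT replicate 3 Cd160 was also called, higher in Ikzf4-/- cells. Over those 5 fits the log2 fold change of Gzmb ran from -1.05 (without Ikzf4-/- replicate 3) to -0.51 (without Ikzf4-/- replicate 2), and it was not called.

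**Figure D5:**
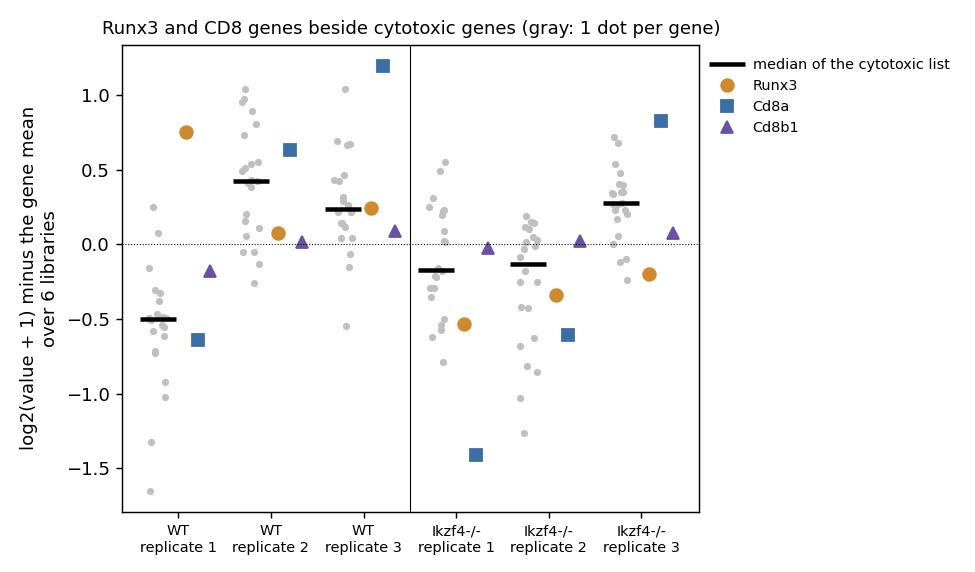
Log2(value + 1) minus each gene's mean over the 6 libraries (vertical axis) for Runx3, Cd8a, Cd8b1 and the 22 cytotoxic genes (gray dots, with their median as a bar) in each library (horizontal axis). In WT replicate 1 the cytotoxic median is -0.50 while Runx3 is at its highest.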

How the data were processed

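Total RNA of 3 WT and 3 Ikzf4-/- Th2 cultures was measured, grouped and numbered by the sample titles. The submitters' processing notes name Trimmomatic 0.36, STAR 2.5.2b, DESeq2 and the builds GRCm38 and mm10; the counting tool, its use of strand and the annotation are not given in the sources used here. The deposited sample columns are a signal, taken here to be read counts divided by a size factor, because 100% of values fell within 0.1 of a whole multiple of 1 step per library (0.899 to 1.06). With steps close to 1 in Ikzf4-/- replicates 1 and 3, whole reads were not accepted as recovered and no count test was run. The deposited table also holds the authors' log2 fold changes and p-values.

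Values were transformed to log2(value + 1), which understates the change of low genes. Genes with a mean of at least 10 were kept (14864, leaving out 4), and genotype was tested with limma 3.58.1 (R 4.3.3, empirical Bayes with a variance trend, two-sided, Benjamini-Hochberg over all genes tested, called under 0.05). Shares and ratios were tested with an exact permutation test over the 6 libraries. Exon lengths and positions came from GENCODE M21, matched by identifier for 14831 genes, and promoter windows from RefSeq. Named were the 8 genes, Ikzf4, the called genes and the most abundant gene of each list, and the 3 genes most like Runx3. Other names were chosen after their values were seen. The genes and lists were chosen with earlier results of these data known. On simulated data of 14868 genes, 91 of 91 genes changed 4-fold and 109 of 109 changed 2-fold were called, and 13 of 14424 unchanged ones. The simulation gave every gene the same relative spread, that of abundant genes, and changed only genes with a WT mean of at least 50. It therefore does not show that every 2-fold change in the data would be called. Gzma, at a log2 fold change of -0.96, was not called (limma adjusted p = 0.237). Alternatives were other scalings, filters, pseudocounts, a replicate block, array weights, the deposited comparison and leaving out each library.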

Additional observations from a re-analysis of the deposited data

How the results depend on the processing

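Runx3 was lower under every alternative run and called in each except without Ikzf4-/- replicate 1, 2 or 3. Its log2 fold change ran from -0.85 to -0.51 over the fits that left out 1 library, and the count of the 8 genes called ran from 0 to 1. Without WT replicate 1 the log2 fold change reversed for Zbtb7b (-0.048, against 0.13 at the highest when another library was left out) and for Cd8b1 (-0.028, against 0.11 at the highest). The difference in the share of Runx2 (0.37 percentage points) reversed with the longest transcript as length (-0.035), with no division by length (-0.43) and without WT replicate 1 (-0.11, against 0.80 at the highest). The shares of Runx1 and Runx3 and the ratios of Runx3 to Zbtb7b and Runx1 kept their direction.

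Over all genes 263 were called, 754 with the replicate block, 482 with array weights and 815 in the authors' deposited table. Leaving out WT replicate 2 or 3 gave 75 and 523, and leaving out Ikzf4-/- replicate 1, 2 or 3 gave 48, 112 and 20. With equal library totals 42.8% of called genes were higher, against 32.3%. Of the 65 list genes 5 were called, 13 with the replicate block, 8 with array weights, 13 in the authors' deposited table, and 2 to 10 when 1 library was left out (10 without WT replicate 1, and 2 without WT replicate 2 or Ikzf4-/- replicate 3). The cause was not tested. Deviations of same-numbered libraries correlated at 0.145, 0.0122 and 0.142, and the replicate numbers were treated as names, not pairs. With the replicate block Runx3 kept its call, and Cd8a had a limma adjusted p of 0.0641.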

Other observations

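The pattern of Cd8a was examined after its values were seen. By the same root mean square difference of centred log2 values, the 3 of 11599 genes nearest to Cd8a over the 6 libraries were Prf1 (0.483), Gzmc (0.504) and Gzmb (0.519), which encode perforin, granzyme C and granzyme B. Prf1 was at 631, 1717 and 1393 in WT and 568, 497 and 1049 in Ikzf4-/- libraries, low in WT replicate 1 and Ikzf4-/- replicates 1 and 2, as Cd8a was. The distances are more than those of the genes nearest to Runx3 (0.111 to 0.120). The points share their libraries, and no test was made of this pattern. Cd8b1 lay between 179 and 215 in all 6 libraries.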
